A study of Mus musculus with 3 samples.

Results

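The mitochondrial carrier family, named Slc25a in the mouse, was described in cultured cortical neurons under low oxygen. Its members were the rows of the deposited expression table whose gene symbol is Slc25a followed by a number, 47 of 24054 genes. The cells came from C57BL/6 mice at embryonic day 17 and were cultured for 7 days before treatment, and total RNA was sequenced with a strand-specific KAPA kit. In the group called hypoxia with T3, cells spent 7 hours at 0.2% oxygen in medium with triiodothyronine (T3), the active form of thyroid hormone, at 5 nM. In the group called hypoxia, cells spent 7 hours at 0.2% oxygen without added hormone, and the control group was kept at 21% oxygen. No allele or transgene is named for any group, and the labels do not give the hormone content of the control medium. Each group is 1 library, and the labels do not say how many cultures or animals it holds.

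Carriers of this family sit almost all in the inner mitochondrial membrane, where each moves particular small molecules between the cytosol and the matrix. They exchange ATP for ADP, bring in phosphate, run the malate-aspartate shuttle that carries reducing equivalents inward, and supply the matrix with amino acids, cofactors and iron. Neurons make most of their ATP by oxidative phosphorylation, which cannot run without the nucleotide and phosphate carriers.

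The promoters of 4 members are shown because these genes had the 2 highest and the 2 lowest ratios of hypoxia to control among members with a single promoter entry and a mean level of 5 CPM or more (CPM are read counts scaled to a common library size). Each is the stretch of 250 bases that ends just before the start that RefSeq gives (GRCm38.p6). Capitals mark ACGTG or GCGTG on either strand, core letters of the element that hypoxia-inducible factor (HIF) binds. The windows are chr9:120110132-120110381 (plus strand) for Slc25a38, chr10:91123968-91124217 (minus strand) for Slc25a3, chr10:62920383-62920632 (plus strand) for Slc25a16 and chr5:8422588-8422837 (plus strand) for Slc25a40.
Slc25a38: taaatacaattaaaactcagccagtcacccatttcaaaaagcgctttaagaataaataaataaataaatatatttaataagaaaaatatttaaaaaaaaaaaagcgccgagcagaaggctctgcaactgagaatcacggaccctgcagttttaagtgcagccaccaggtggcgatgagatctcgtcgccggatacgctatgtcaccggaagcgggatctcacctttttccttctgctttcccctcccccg
Slc25a3: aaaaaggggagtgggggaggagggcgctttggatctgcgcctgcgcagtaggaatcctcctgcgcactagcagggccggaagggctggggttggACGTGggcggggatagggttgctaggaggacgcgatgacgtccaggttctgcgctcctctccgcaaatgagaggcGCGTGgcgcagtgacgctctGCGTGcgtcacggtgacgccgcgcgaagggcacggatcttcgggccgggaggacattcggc
Slc25a16: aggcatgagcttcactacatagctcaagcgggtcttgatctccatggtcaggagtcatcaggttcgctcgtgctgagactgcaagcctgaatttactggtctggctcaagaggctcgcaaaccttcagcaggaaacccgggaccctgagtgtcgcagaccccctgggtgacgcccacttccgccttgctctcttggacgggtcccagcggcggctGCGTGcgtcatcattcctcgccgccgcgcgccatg
Slc25a40: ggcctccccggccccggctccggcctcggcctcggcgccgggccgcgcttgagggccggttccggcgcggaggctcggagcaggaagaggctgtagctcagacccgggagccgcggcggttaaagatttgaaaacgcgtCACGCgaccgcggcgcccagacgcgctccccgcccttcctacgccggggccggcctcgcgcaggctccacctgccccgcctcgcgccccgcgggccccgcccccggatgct

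Slc25a38, the highest of these 4 genes, held none of the core letters, Slc25a3 held 3 copies, and the low genes Slc25a16 and Slc25a40 held 1 copy each. RefSeq entries were matched for 36 of the 47 members, with 46 windows because some genes have several starts. Of these 46 windows, 26 held ACGTG or GCGTG (56.5%), against 38.6% of the 32851 windows of all genes. Windows of the same gene can overlap, as in Slc25a14, and motifs were not counted per gene. The median GC content was 57.4% in the Slc25a windows and 52.4% over all windows. Both cores contain a CpG, and the median number of CpG per window was 11.5 in the Slc25a windows and 6.0 over all windows. The part of base composition in these shares was not tested. The E-box CACGTG, which holds ACGTG on both strands, was in 8 Slc25a windows (17.4%) and in 6.02% of all windows. AGGTCA, the core of thyroid hormone response elements, was in 4 Slc25a windows (8.70%) and in 14% of all windows. TCAAGGTCA, a motif of the estrogen-related receptors that contains AGGTCA, was in 0 Slc25a windows and in 0.387% of all windows. All motifs were searched on both strands.

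The deposited CPM values were scaled with TMM, a correction for library composition. Whole reads were recovered from them, 22533574 for hypoxia with T3, 17118865 for hypoxia and 18081904 for control. Because no group has a replicate there is no test across samples, and each interval given after a fold or a share is an exact Clopper-Pearson interval at 95% that covers counting error only. Genes whose CPM averaged 1 or more over the 3 libraries were compared, 35 of the 47 members and 12692 genes in all. The HIF targets Vegfa, Slc2a1, Pdk1, Ldha, Bnip3 and Hk2 were all at least 2-fold higher in hypoxia than in control, and the hormone-induced gene Hr had 23.9 CPM in hypoxia with T3, against 4.75 CPM in hypoxia. The 9 neuronal markers summed to 6049 CPM in hypoxia with T3, 6095 CPM in hypoxia and 6023 CPM in control. Of these 9, 8 lay above 0 in hypoxia over control, with a median log2 ratio of 0.32. Of the 9, 1 was at least 2-fold higher, and Tubb3 was at least 2-fold lower. The 6 excitatory neuron markers summed to 827 CPM in hypoxia with T3, 833 CPM in hypoxia and 890 CPM in control. In hypoxia over control 3 of these 6 lay above 0, with a median of 0.02, and 1 was at least 2-fold lower. The 8 astrocyte markers summed to 542, 528 and 507 CPM. The 6 microglial markers summed to 1.62, 1.49 and 1.39 CPM, with Tmem119 at 0 reads in both hypoxic libraries. The 9 oligodendrocyte lineage markers summed to 209 CPM in hypoxia with T3, 205 CPM in hypoxia and 347 CPM in control, with 3 of the 9 at least 2-fold lower in hypoxia than in control and none at 0 reads. The 7 inhibitory neuron markers summed to 443, 467 and 343 CPM, and the 6 progenitor markers to 240, 223 and 255 CPM. Of the 6 progenitor markers, 3 were at least 1.5-fold lower in hypoxia than in control, and the other 3 lay above 0. The part of these cell types in the carrier values was not tested, and in bulk RNA fewer cells of a type and less RNA per cell cannot be told apart.

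The comparison of hypoxia with control addresses how oxygen deprivation changes carrier transcripts. Most carriers were higher in hypoxia, by less than 2-fold. High ratios belonged to the carriers of branched-chain amino acids and glycine and to an ATP-Mg/phosphate carrier, and the lowest to a carrier linked to coenzyme A and a glutathione carrier. On the scale of log2 of CPM + 1, 24 of the 35 members lay above 0 and 11 below, or 68.6% above 0, against 54.5% of all genes compared. With libraries set to equal sums, 20 of the 35 lay above 0, where the median was 0.13 for the members and −0.10 for all genes. The share of all genes above 0 was not counted there, but by that median more of them lay below 0 than above. As deposited, the median was 0.27 for the members and 0.05 for all genes compared. The members took 0.295% of all reads in hypoxia (0.292 to 0.297) and 0.253% in control (0.251 to 0.255), a share that no scaling changes.

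None of the 35 was at least 2-fold higher, where 1.99% of all genes were, and none was at least 2-fold lower, where 4.92% were. At 1.5-fold, 4 members were higher (11.4%), against 8.46% of all genes, and 1 was lower (2.86%), against 13.8%. These splits depend on the scaling. When the libraries were set to equal sums, the median over all genes was −0.10, and 520 genes were at least 1.5-fold higher and 2455 lower, in place of 1074 and 1754. The members' median exceeded that of all genes by 0.21 as deposited and by 0.23 with equal sums.

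**Figure D1:**
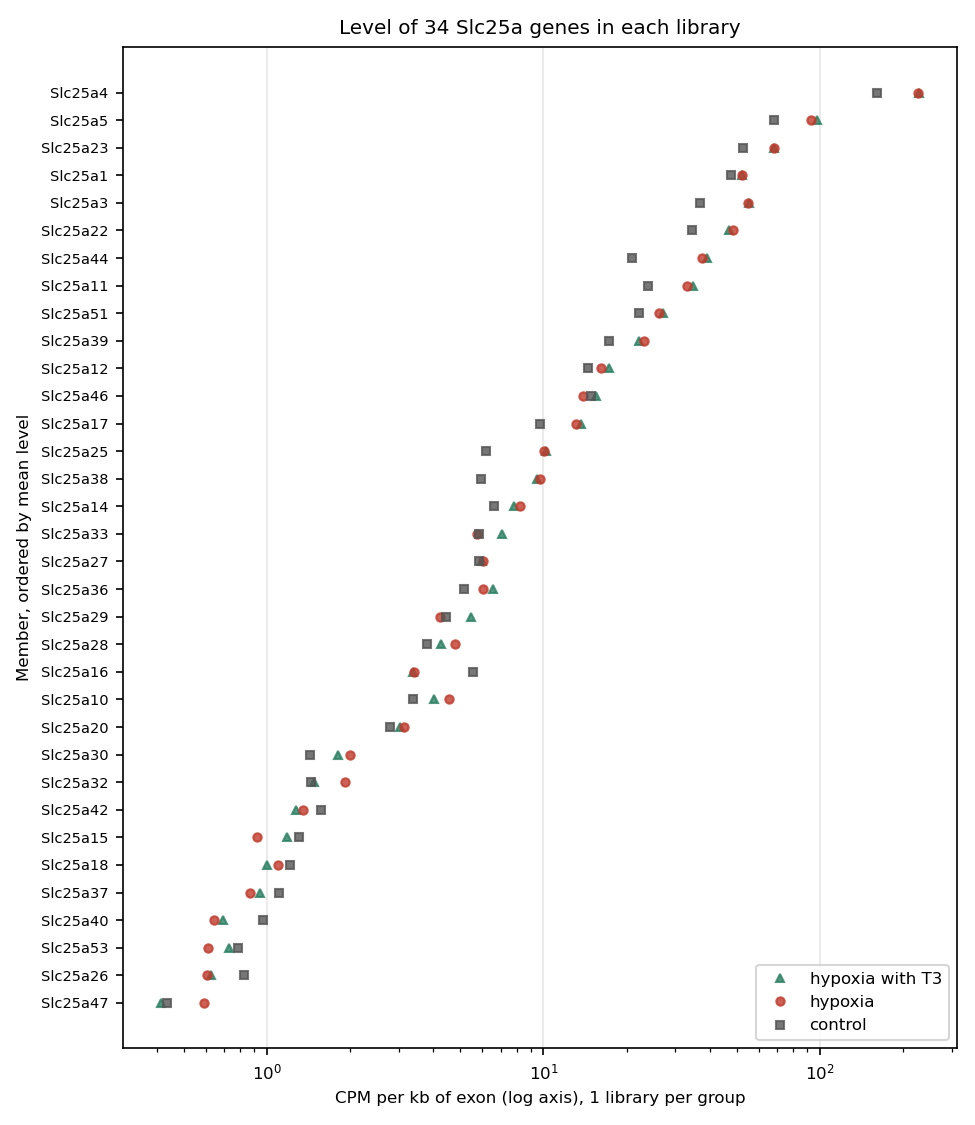
Level of 34 of the 35 Slc25a genes compared, as CPM per kb of exon on a log axis, with 1 point per library for hypoxia with T3, hypoxia and control. Slc25a4 stood highest in every library (228, 226 and 161), and Slc25a47 lowest.

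The carriers of ATP, ADP and phosphate were among the most abundant. Levels can be compared between genes only per length. Per kb of exon Slc25a4, the adenine nucleotide translocase ANT1, was first in every library, at 228 CPM per kb in hypoxia with T3, 226 in hypoxia and 161 in control. Slc25a5, its relative ANT2, followed at 97.5, 92.8 and 68.4 CPM per kb, and Slc25a23 was next at 68.0, 68.3 and 52.8. The phosphate carrier Slc25a3 was at 55.5 CPM per kb in hypoxia with T3, 54.8 in hypoxia and 36.8 in control, and the citrate carrier Slc25a1 was at 52.3, 52.2 and 47.8. Slc25a3 and Slc25a1 thus changed places in control. By CPM, Slc25a4 alone held 19.0% of the family's sum in hypoxia with T3, 19.1% in hypoxia and 17.9% in control.

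The translocases Slc25a4 and Slc25a5 and the phosphate carrier Slc25a3 were higher in hypoxia than in control, each short of 1.5-fold. Slc25a4 was at 537 CPM in hypoxia with T3, 533 CPM in hypoxia and 380 CPM in control, 1.40-fold higher in hypoxia than in control (1.36 to 1.45). Slc25a5 was at 161, 153 and 113 CPM in the same order of libraries, 1.36-fold higher in hypoxia (1.28 to 1.43). Its reads are uncertain, because 49.4% of its 31-base words also occur in transcripts of other genes. Slc25a3, which delivers the phosphate used by ATP synthase, was at 308 CPM in hypoxia with T3, 304 CPM in hypoxia and 204 CPM in control, 1.49-fold higher in hypoxia (1.43 to 1.55). The testis form of the translocase, Slc25a31, had 0 reads in hypoxia with T3, 1 in hypoxia and 0 in control, where 0 reads allow up to 0.139 CPM.

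The ATP-Mg/phosphate carriers set the adenine nucleotide pool of the matrix, several of them in response to calcium. The 2 compared were both higher in hypoxia, while Slc25a24, too low to be compared, was lower. Slc25a23 was at 360 CPM in hypoxia with T3, 361 CPM in hypoxia and 279 CPM in control, 1.29-fold higher in hypoxia (1.25 to 1.34). Slc25a25 (chr2:32414487-32451445, minus strand) was at 80.2 CPM in hypoxia with T3, 79 CPM in hypoxia and 48.8 CPM in control, 1.62-fold higher in hypoxia (1.49 to 1.75). Slc25a24 (chr3:109123149-109168457, plus strand) went the other way, with 10 reads in hypoxia with T3, 7 in hypoxia and 33 in control. That is 3.96-fold lower in hypoxia than in control (1.72 to 10.6) and 3.60-fold lower in hypoxia with T3 (1.73 to 8.18). Its average stayed under 1 CPM, which keeps it out of the 35. The fourth relative, Slc25a41, had 0 reads in hypoxia with T3, 1 in hypoxia and 1 in control. Within the pair of abundant relatives, Slc25a23 held 81.8% of the reads in hypoxia with T3 (81.0 to 82.5), 82.1% in hypoxia (81.2 to 82.9) and 85.1% in control (84.3 to 85.9).

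Amino acid carriers were among the members with high ratios. Slc25a44 (chr3:88410498-88425139, minus strand), a carrier of branched-chain amino acids, was at 139 CPM in hypoxia with T3, 134 CPM in hypoxia and 74.6 CPM in control, 1.80-fold higher in hypoxia (1.69 to 1.92). Slc25a38 (chr9:120110374-120124504, plus strand), which imports glycine for haem synthesis, was at 26.1 CPM in hypoxia with T3, 26.6 CPM in hypoxia and 16.3 CPM in control, 1.63-fold higher in hypoxia (1.42 to 1.88). In both genes each hypoxic library stood above control. These genes and Slc25a25 are among the 4 past 1.5-fold. With equal sums the folds of hypoxia over control were 1.60 for Slc25a44, 1.45 for Slc25a38 and 1.43 for Slc25a25.

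The lowest compared member was a cofactor carrier. Slc25a16 (chr10:62920633-62946498, plus strand), linked to coenzyme A, was at 16.2 CPM in hypoxia with T3, 16.3 CPM in hypoxia and 26.6 CPM in control, 1.63-fold lower in hypoxia (1.42 to 1.89), and was the 1 member counted as at least 1.5-fold lower. Slc25a42, which imports coenzyme A, was at 7.61 CPM in hypoxia with T3, 8.06 CPM in hypoxia and 9.41 CPM in control, and the interval of hypoxia over control (0.688 to 1.07) included 1. Slc25a32, a carrier of folate and flavin, was at 9.01 CPM in hypoxia with T3, 11.7 CPM in hypoxia and 8.76 CPM in control. Its fold of hypoxia over control was 1.33 (1.09 to 1.63) as deposited and 1.18 with equal sums. The pyrimidine nucleotide carrier Slc25a33 was at 13.3, 10.9 and 11.1 CPM in the same order of libraries, and its relative Slc25a36 at 63.2, 58.2 and 49.3 CPM. Over the 9 cofactor and nucleotide carriers compared, which also include Slc25a17, Slc25a26 and Slc25a51, 5 lay above 0.

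Among the remaining amino acid carriers the differences were smaller. Slc25a15, the ornithine carrier of the urea cycle, was at 6.68 CPM in hypoxia with T3, 5.19 CPM in hypoxia and 7.32 CPM in control, 1.41-fold lower in hypoxia than in control (1.09 to 1.84). Its relative Slc25a2 had 10 reads in hypoxia with T3, 7 in hypoxia and 5 in control. Slc25a29, a carrier of basic amino acids, was at 14.2 CPM in hypoxia with T3, 11 CPM in hypoxia and 11.6 CPM in control. No difference of hypoxia from control was detectable for Slc25a29 at this depth (0.788 to 1.15), nor for the carnitine carrier Slc25a20 (0.948 to 1.33). Slc25a46, an outer membrane member that acts in mitochondrial dynamics, was at 84.2 CPM in hypoxia with T3, 75.2 CPM in hypoxia and 80.7 CPM in control. Slc25a53 was at 5.78, 4.86 and 6.26 CPM, and its interval of hypoxia over control (0.587 to 1.02) included 1.

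Carriers of glutamate and of the malate-aspartate shuttle were higher in hypoxia where they were abundant. Slc25a22, a glutamate carrier, was at 281 CPM in hypoxia with T3, 291 CPM in hypoxia and 207 CPM in control, 1.41-fold higher in hypoxia (1.35 to 1.46). Slc25a18, a glutamate carrier found mainly in astrocytes, was at 1.91 CPM in hypoxia with T3, 2.1 CPM in hypoxia and 2.32 CPM in control, and its interval (0.578 to 1.41) included 1. Slc25a11, the oxoglutarate-malate exchanger of the shuttle, was at 73.5 CPM in hypoxia with T3, 69.8 CPM in hypoxia and 50.7 CPM in control, 1.38-fold higher in hypoxia (1.27 to 1.49). The other arm of the shuttle is the aspartate-glutamate carrier. Its form aralar, Slc25a12, was at 127 CPM in hypoxia with T3, 119 CPM in hypoxia and 106 CPM in control, 1.11-fold higher in hypoxia (1.05 to 1.18) but below 1 with equal sums. Its form citrin, Slc25a13, known mainly from liver, had 1 read in hypoxia with T3, 1 in hypoxia and 10 in control, and hypoxia over control was 0.119 (0.00275 to 0.838). The dicarboxylate carrier Slc25a10 was at 13.9, 15.7 and 11.7 CPM in the same order, 1.35-fold higher in hypoxia (1.13 to 1.60). Slc25a1, which exports citrate, was at 113 CPM in hypoxia with T3, 113 CPM in hypoxia and 103 CPM in control, 1.09-fold higher in hypoxia (1.03 to 1.16), and it too was below 1 with equal sums.

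The glutathione carriers differed in direction, and in both the glutathione and the iron pair the share of each relative differed between hypoxia and control. Slc25a39 and Slc25a40 bring glutathione, the main thiol antioxidant, into the matrix. Slc25a39 was at 61.3 CPM in hypoxia with T3, 63.8 CPM in hypoxia and 47.7 CPM in control, 1.34-fold higher in hypoxia (1.23 to 1.45). Slc25a40 (chr5:8422850-8454797, plus strand) was at 5.83 CPM in hypoxia with T3, 5.41 CPM in hypoxia and 8.11 CPM in control, and hypoxia over control was 0.667 (0.516 to 0.859). Slc25a40 held 8.68% of the reads of the pair in hypoxia with T3 (7.34 to 10.2), 7.82% in hypoxia (6.39 to 9.45) and 14.5% in control (12.6 to 16.6). The control interval lies above both others. The iron carriers are called mitoferrins. Mitoferrin 2, Slc25a28, was at 15.9 CPM in hypoxia with T3, 18 CPM in hypoxia and 14.2 CPM in control, 1.27-fold higher in hypoxia (1.08 to 1.48). Mitoferrin 1, Slc25a37, which serves haem synthesis in red cell precursors, was at 5.70, 5.25 and 6.67 CPM, and its interval of hypoxia over control (0.600 to 1.03) included 1. Slc25a28 held 73.7% of the reads of the pair in hypoxia with T3 (69.6 to 77.5), 77.4% in hypoxia (73.1 to 81.3) and 68.1% in control (63.5 to 72.4). Here the control interval lies below that of hypoxia but overlaps that of hypoxia with T3.

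**Figure D2:**
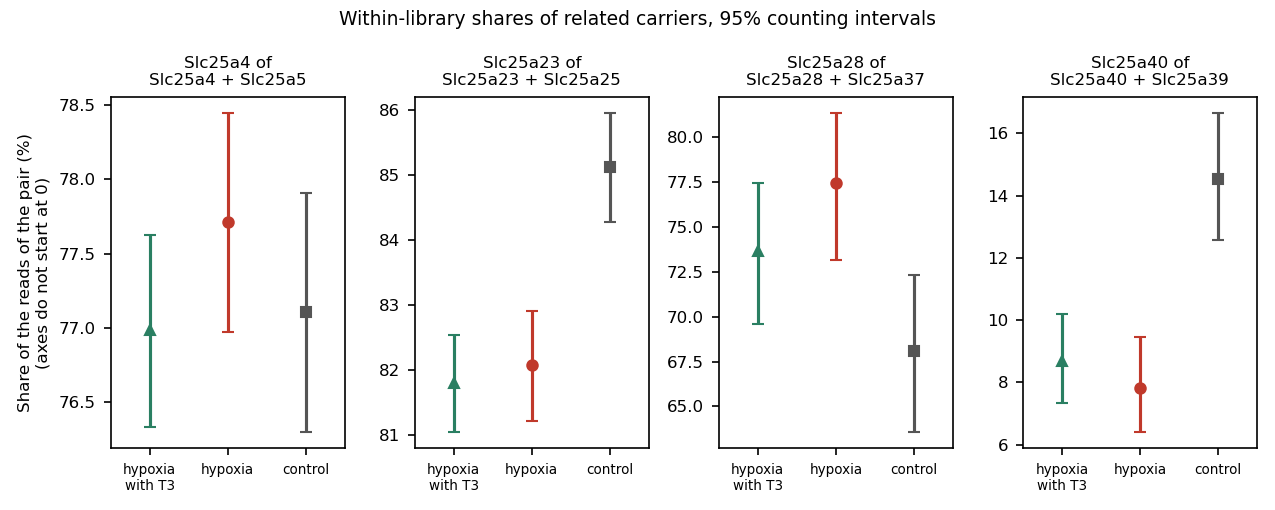
Share of the reads of selected pairs of related carriers taken by the first-named gene, in percent. The pairs are Slc25a4 with Slc25a5, Slc25a23 with Slc25a25, Slc25a28 with Slc25a37, and Slc25a40 with Slc25a39. There is 1 point per library (hypoxia with T3, hypoxia, control), with exact 95% intervals for counting error. Shares of other pairs were computed but are not plotted. The share of Slc25a40 in its pair with Slc25a39 was 8.68%, 7.82% and 14.5%, and that of Slc25a4 in its pair with Slc25a5 was 77.0%, 77.7% and 77.1%.

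Of the 3 members related to uncoupling proteins, Slc25a14 and Slc25a30 were higher in hypoxia. Slc25a14, also called UCP5, was at 18.5 CPM in hypoxia with T3, 19.4 CPM in hypoxia and 15.7 CPM in control, 1.24-fold higher in hypoxia (1.07 to 1.45). Slc25a30, its close relative, was at 8.25 CPM in hypoxia with T3, 9.11 CPM in hypoxia and 6.53 CPM in control, 1.39-fold higher in hypoxia (1.11 to 1.76). Slc25a27, also called UCP4, was at 23.6, 23.7 and 23.1 CPM, a difference too small to detect here, and its side of 1 depends on the scaling. The 12 members not compared had at most 33 reads in a library, the control value of Slc25a24. Slc25a35 had 7 reads in hypoxia with T3, 8 in hypoxia and 19 in control. It was 2.96-fold lower in hypoxia with T3 than in control (1.19 to 8.33), and its interval for hypoxia over control (0.190 to 1.2) included 1. Slc25a45 had 10 reads in hypoxia with T3, 0 in hypoxia and 4 in control. The others not named above are Slc25a21, Slc25a34 and Slc25a54, with at most 3 reads in a library, and Slc25a43 and Slc25a48, with 0 reads in all 3 libraries. A count of 0 allows up to 0.128 CPM in hypoxia with T3, 0.166 CPM in hypoxia and 0.139 CPM in control. Slc25a47, the lowest member compared per kb of exon, was at 1.23, 1.77 and 1.30 CPM.

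**Figure D3:**
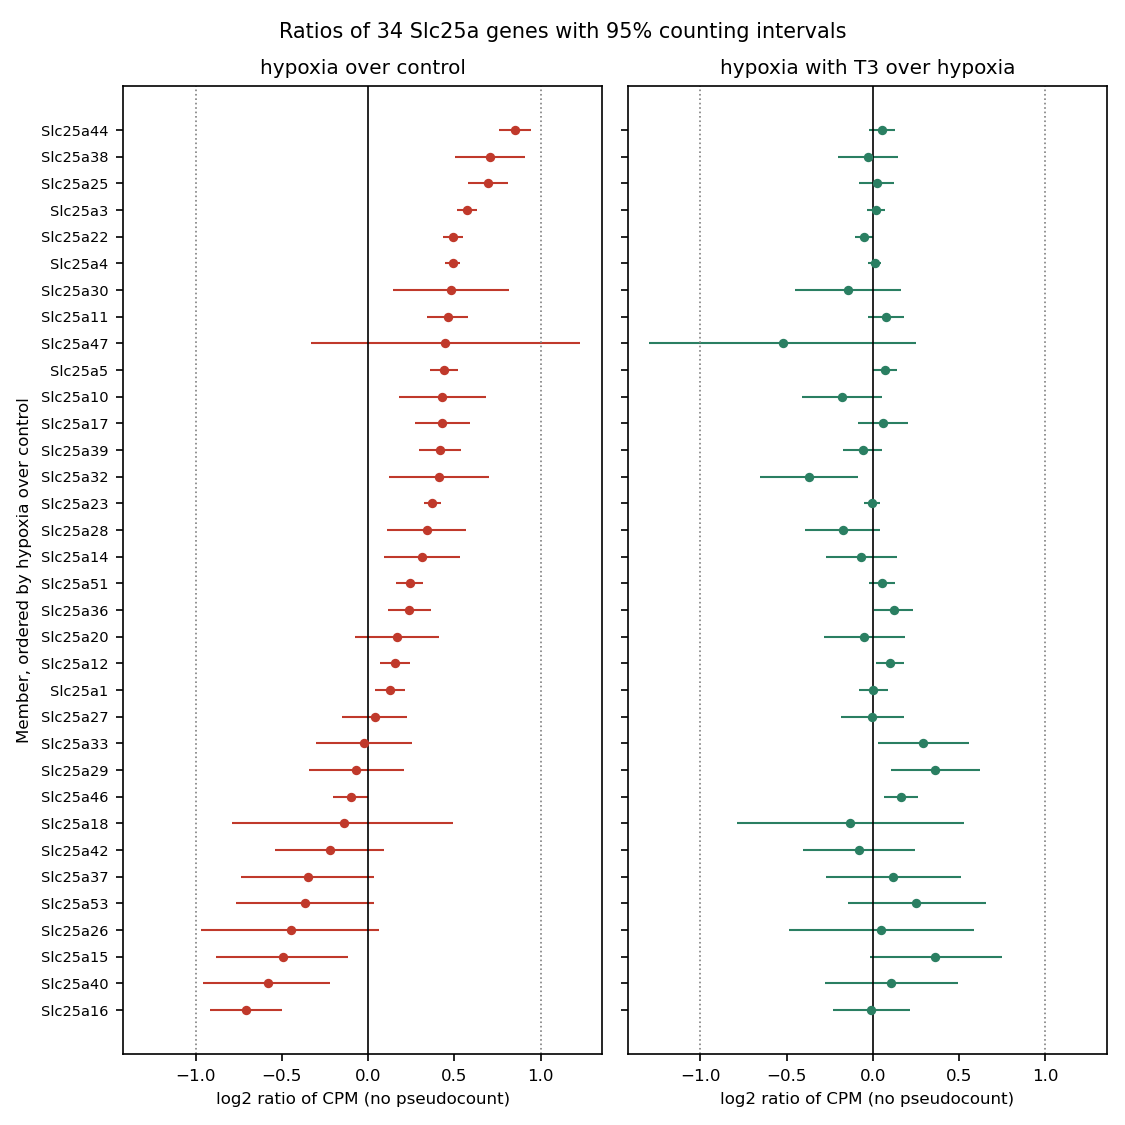
Log2 ratio of CPM without pseudocount for 34 of the 35 members compared, hypoxia over control (left) and hypoxia with T3 over hypoxia (right), with exact 95% counting intervals and dotted lines at 2-fold. On the left the members run from Slc25a16, 1.63-fold lower, to Slc25a44, 1.80-fold higher, while on the right the points lie closer to 0.

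The comparison of hypoxia with T3 against hypoxia addresses what the hormone changes when oxygen is low. Carrier transcripts were close in the 2 hypoxic libraries. None of the 35 members was at least 2-fold higher or lower, where 0.126% of all genes were higher and 0.063% lower. None passed 1.5-fold, where 0.717% of all genes were higher and 0.276% lower. The median was 0.01 for the members and 0.01 for all genes, and 85.7% of the members lay within 1.2-fold, against 84.9% of all genes compared. For Slc25a4 the ratio was 1.01 (0.981 to 1.03), and its side of 1 depends on the scaling.

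Between the hypoxic libraries, 7 of the 35 members had intervals that excluded 1. The same count was not made over all genes, so whether 7 is more than for genes at large is not known. Slc25a29, given above at 14.2 CPM in hypoxia with T3 and 11 CPM in hypoxia, was 1.29-fold higher with the hormone (1.08 to 1.54). Slc25a33 was 1.22-fold higher with the hormone (1.02 to 1.47). Slc25a32, at 9.01 CPM in hypoxia with T3 and 11.7 CPM in hypoxia, was 1.29-fold lower with the hormone (1.06 to 1.57). In the other members of the 7 the ratio was nearer to 1, at 1.12 for Slc25a46, 1.09 for Slc25a36, 1.07 for Slc25a12 and 0.964 for Slc25a22. For Slc25a15 the ratio was 1.29 (0.990 to 1.68) and for Slc25a53 it was 1.19 (0.903 to 1.57), intervals that include 1. The same held on the lower side for Slc25a10 at 0.883 (0.751 to 1.04), Slc25a28 at 0.886 (0.761 to 1.03) and Slc25a30 at 0.905 (0.732 to 1.12). The intervals are not adjusted for the number of members examined.

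Hypoxia with T3 against control shares the control library with hypoxia against control, so that likeness between them is built in. Above 0 lay 26 of the 35 members (74.3%), against 56.4% of all genes. With equal sums 20 of the 35 lay above 0, where the median was 0.06 for the members and −0.10 for all genes. Again the share of all genes above 0 was not counted there, but by that median more lay below 0 than above. As deposited, the median was 0.24 for the members and 0.08 for all genes. None was at least 2-fold higher or lower, where 2.06% of all genes were higher and 4.59% lower. At 1.5-fold, 5 members were higher, against 8.73% of all genes, and 1 was lower, against 13.1%. Among the 5, Slc25a44 was 1.87-fold higher in hypoxia with T3 than in control (1.76 to 1.98), Slc25a25 1.64-fold (1.52 to 1.77), Slc25a38 1.60-fold (1.40 to 1.83) and Slc25a3 1.51-fold (1.45 to 1.57). The 1 lower member was Slc25a16, 1.64-fold (1.44 to 1.87). Control was the lowest of the 3 libraries for 23 of the 35 members and the highest for 8. These counts were not made over all genes, and they depend on the scaling.

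Gene span, the length of the gene from its first to its last base, went with the ratio of hypoxia to control among the carriers as it did over all genes. Spearman's rho was −0.509 across the 35 members and −0.507 across 12608 annotated genes, a description of genes measured in the same 2 libraries. All 8 members shorter than 10 kb lay above 0, with a median of 0.44. Of all 2954 genes of that span, 2295 lay above 0, with a median of 0.33. The 4 members of 50 kb or more had a median of −0.20, against −0.30 for all genes of that span, and of these 4 only Slc25a12 lay above 0. Slc25a44 spans 14.6 kb, and Slc25a16, the lowest member, 25.9 kb. The part of span in these ratios was not tested.

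**Figure D4:**
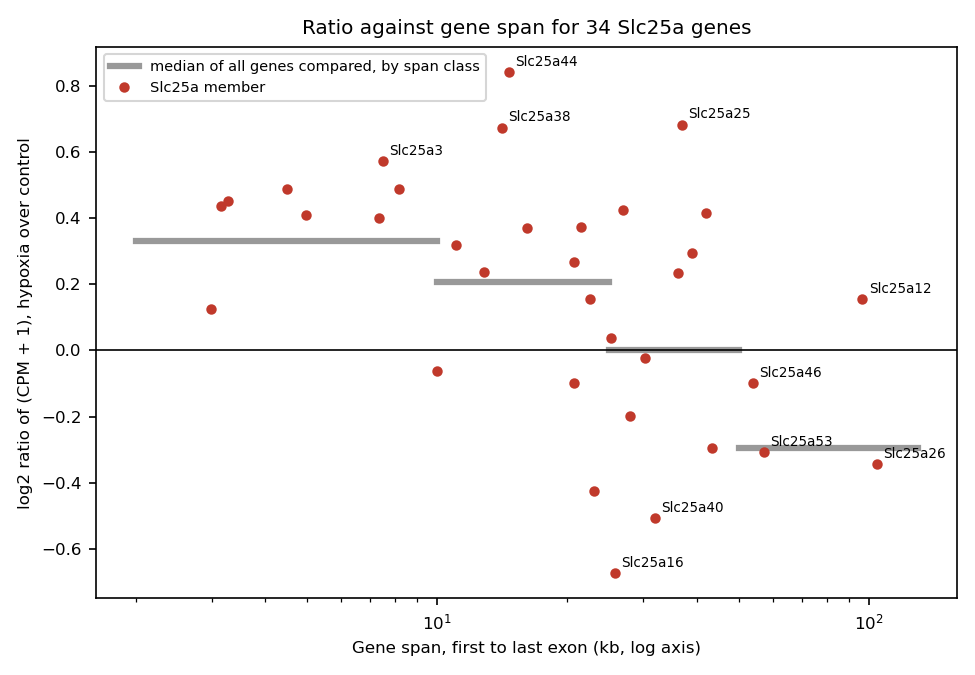
Log2 ratio of CPM + 1, hypoxia over control, against gene span in kb on a log axis for 34 of the 35 Slc25a genes compared, with the median of all genes compared in each of 4 span classes as grey bars (below 10, 10 to 25, 25 to 50, and 50 kb or more). The 8 members below 10 kb all lie above 0, and 3 of the 4 members of 50 kb or more lie below it.

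Other transporters and mitochondrial genes were set beside the family for hypoxia over control, with no test of the difference because each group is 1 library. The 185 compared solute carriers outside Slc25a, most of which serve other membranes, had a median of 0.01, with 5 at least 2-fold higher and 13 at least 2-fold lower. The 78 oxidative phosphorylation genes had a median of 0.52, with 77 above 0, and the 77 mitochondrial ribosomal protein genes a median of 0.33, with 71 above 0. The carriers' median of 0.27 lay between the other solute carriers and these mitochondrial groups. Of 12 genes for the import of carriers into the membrane, 11 lay above 0, with a median of 0.39. Among them the translocase subunit Timm22 had 25.6 CPM in hypoxia, against 16.8 CPM in control. The 6 enzymes of the metabolite shuttles all lay above 0, and Mdh2, the matrix malate dehydrogenase, had 299 CPM in hypoxia, against 202 CPM in control. Of 19 other mitochondrial transport genes, 14 lay above 0. The calcium uniporter's pore, Mcu, had 24.9 CPM in hypoxia, against 40.5 CPM in control, 1.63-fold lower (1.45 to 1.83), and its regulatory subunit Smdt1 had 52.3 CPM in hypoxia, against 33 CPM in control, 1.58-fold higher (1.43 to 1.75). Of 4 compared carriers of the family with other names, 3 lay above 0, and Mtch1, an outer membrane protein, had 355 CPM in hypoxia, against 252 CPM in control. Of 8 enzymes that make or use citrate, 5 lay above 0, with a median of 0.15.

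In the authors' deposited table for hypoxia against control, 37 members are listed and 0 had a false discovery rate below 0.05, against 0.646% of the 13152 genes it lists, while 1 member had an unadjusted p below 0.05. That member was Slc25a24, for which the authors' deposited table gives a signed fold of −4.08, with p = 0.0146 and 0.455 as its false discovery rate. In the authors' deposited table for hypoxia with T3 against control, 0 of 37 members had a false discovery rate below 0.05, against 0.791% of all genes listed, and Slc25a24 had a signed fold of −3.74 with p = 0.0160. The minus sign marks a lower level than in control, and the sources used here do not name the test. Genes with an unadjusted p below 0.05 were not counted over all genes listed. Whether 1 of 37 members is more than for genes at large is therefore not known. Exons of 12 members overlap exons of a gene on the opposite strand, by up to 31.3% of the exonic length for Slc25a35 and 14.9% for Slc25a33. Whether reads were counted by strand is not given in the sources used here, so the reads of such pairs may be shared.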

How the data were processed

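RNA was measured in 3 libraries, 1 per group, grouped by their treatment labels. The authors deposited CPM values, TMM-normalised by their own description. Within a tolerance of 0.01, 100% of the deposited values in each library are whole multiples of what 1 read is worth, which gives the read counts back. Per the submitters' processing notes the tools were RSEM 1.2.15, Bowtie2 2.1.0 and bcl2fastq 2.17 with mm10, and their roles are not given. The deposited comparison tables hold, per the file headers, a signal per library on another scale (not used), a signed fold treated as a score, and p-values with false discovery rates.

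Folds are ratios of CPM. Medians and counts use log2 of CPM + 1 over genes averaging at least 1 CPM. With 1 library per group no variability between samples can be estimated, so no count test was run. Spans, exons and shared 31-base words are from GENCODE M21 (GRCm38), matched for 47 of 47 members. Reads carry no molecular identifiers and may be copies of one molecule, so intervals and the floor of 3 reads cover counting error alone. Values are given for any member past 2-fold on the log2 scale of CPM + 1 (none was), the 8 highest and 8 lowest ratios of hypoxia to control and the 4 highest and 4 lowest of hypoxia with T3 to hypoxia (mean of 5 CPM or more), the 5 highest levels per kb, and listed sets of relatives. 1 member that the counts include is not reported here by name or value. The members and lists were chosen with earlier results of these data known. The ratio and interval code was tested on simulated data. Alternatives changed the pseudocount, filter, threshold or scaling, the last by equal sums or DESeq2 1.42.0 size factors. Python 3.11.15, numpy 2.4.6, pandas 2.3.3, scipy 1.17.1, matplotlib 3.10.9 and R 4.3.3 were used.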

Additional observations from a re-analysis of the deposited data

How the results depend on the processing

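The members' median kept its sign in every alternative for both comparisons with control, between 0.13 and 0.31 for hypoxia and between 0.06 and 0.26 for hypoxia with T3. For hypoxia with T3 over hypoxia it lay between −0.01 and 0.02, with its sign set by the scaling. A threshold of 1.5-fold in place of 2-fold gave 4 members higher and 1 lower in hypoxia over control, and 5 higher and 1 lower in hypoxia with T3 over control. Alternatives for the counts at 1.5-fold were chosen after seeing the data. When libraries were set to equal sums, 2 members were at least 1.5-fold higher and 2 lower in each comparison with control. Of all genes, 4.1% were then higher and 19.3% lower in hypoxia, and 4.0% and 19.0% in hypoxia with T3. With a pseudocount of 5 CPM, 0 were lower in each comparison with control and 3 were higher in hypoxia with T3 over control, and median-of-ratios size factors also gave 3 higher there. Of all genes, that pseudocount gave 8.74% lower in hypoxia and 8.07% lower in hypoxia with T3. In hypoxia with T3 over control, 5.4% of all genes were higher with that pseudocount and 5.96% with the size factors. Without a filter on low values, 2 of the 47 members were lower in each comparison with control, against 7.59% of all genes in hypoxia and 7.22% in hypoxia with T3. With equal sums the ratio was 0.968 for Slc25a1 and 0.988 for Slc25a12 in hypoxia over control, and 0.956 for Slc25a1 in hypoxia with T3 over control, each on the other side of 1. Counting members whose interval included 1, direction changed with equal sums in 4 of 35 members for hypoxia over control (also Slc25a20 and Slc25a27) and in 6 for hypoxia with T3 over control (also Slc25a20, Slc25a27, Slc25a28, Slc25a32 and Slc25a46). These scalings differ by 1 factor per library. No paired analysis was possible because each group has 1 library, and for the same reason no library could be left out. In hypoxia over control the counting interval included 1 for 6 of the 10 members compared that averaged below 10 CPM and for 5 of the other 25. The same count was not made over all genes, so whether these numbers are particular to the carriers is not known.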
